A study of Mus musculus with 8 samples.

Results

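The genes described here encode the machinery that carries proteins into mitochondria. They were taken by name from the deposited tables as every gene whose symbol begins with Timm or Tomm and a digit, with Timmdc1, and 27 of 53242 listed genes matched. Of these, 26 are annotated as protein-coding and 1, Tomm6os, as a long noncoding RNA on the strand opposite Tomm6. One further row, Timm29-ps1, was left out because its name carries -ps. After the filter on low counts 25 of the 27 could be tested among 14218 genes. Tomm20l had no counts in any library and Timm8a2 had between 2 and 10, and neither was tested.

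Almost all mitochondrial proteins are encoded in the nucleus, made in the cytosol and imported. The TOM complex of the outer membrane receives them through receptors and passes them through a pore, small TIM chaperones guide hydrophobic proteins across the intermembrane space, and the inner membrane holds 2 translocases, TIM23 for proteins with a cleavable presequence and TIM22 for metabolite carriers. Activated B cells grow and add mitochondrial mass before they divide.

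Splenic B cells of mice aged 8 to 12 weeks on a C57BL/6 background were activated for 24 h with IL4 (40 ng/ml) on irradiated CD40LB cells, a fibroblast feeder line that expresses CD40 ligand and BAFF, and RNA of the recovered B cells was sequenced. The 4A1 KO group was Eif4a1 fl/fl Cd23-cre and the control group Eif4a1 +/+ Cd23-cre, so that the control mice also carried the Cre transgene. The Cre is driven by the Cd23 promoter, which acts in B cells from the late immature stage in the spleen, and it removes exons 2 to 4 of Eif4a1, the gene for the RNA helicase of the EIF4F translation initiation complex. There were 8 libraries, replicates 1 to 4 of each genotype. Males gave replicates 1 and 3 and females replicates 2 and 4, and replicates 1 and 2 were batch A and 3 and 4 batch B. The study removed replicate 1 of both genotypes for low viability. Tests of single genes between genotypes therefore used replicates 2 to 4 (n = 3 per genotype), with all 8 libraries as an alternative. Tests of a genotype effect that differed by sex or batch, and those of the Timm17 ratio, used all 8 libraries.

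The control libraries held between 39890141 and 43210858 counts on genes and the 4A1 KO libraries between 31727557 and 42705798. Eif4a1 itself stood at 825, 748, 939 and 881 CPM (counts scaled to library size) in control libraries 1 to 4 and at 596, 556, 641 and 689 CPM in 4A1 KO libraries 1 to 4, a log2 fold change of -0.44 (SE 0.05, adjusted p = 0.000115 by the quasi-likelihood test of edgeR and Benjamini-Hochberg adjustment, as for every adjusted p on counts below). Counts cover the whole gene and do not separate transcripts that lack the deleted exons. The summed level of 6 B cell markers was 3519 to 3725 CPM in control and 2879 to 3102 CPM in 4A1 KO libraries, with 4 of the 6 lower. Summed fibroblast markers lay between 28.2 and 49.7 CPM in control and between 24.4 and 36.5 CPM in 4A1 KO, with Postn at 0 in all libraries, T cell markers did not exceed 0.0999 CPM in any library, myeloid markers lay at 8.68 to 14.7 against 14.2 to 16.3 CPM, and plasma cell markers at 622 to 928 against 549 to 690 CPM. At an adjusted p under 0.05, 2 of 7 tested fibroblast markers were lower and 1 higher. For myeloid markers 2 of 4 tested were higher, and for plasma cell markers 3 of 5 were lower. Activated B cells also express the plasma cell markers Irf4 (mean 588 CPM in control, 516 in 4A1 KO) and Xbp1 (150 and 78.3). The others, Sdc1, Prdm1 and Jchain, had means of 10.6, 7.41 and 17.0 CPM in control and 4.44, 5.33 and 15.7 in 4A1 KO. The feeder cells had been removed with an antibody to H-2Kd before RNA was isolated. The part of these markers in the results below was not tested, and in RNA from many cells at once fewer cells of a type and less RNA per cell cannot be told apart.

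Across the import genes the difference between genotypes went both ways. In 4A1 KO B cells 8 of the 25 tested genes were lower and 6 were higher at an adjusted p under 0.05, and 11 did not pass. Over all tested genes 26.7% were lower and 26.3% were higher by the same rule, so the share of import genes past the threshold was near that of genes in general. Without replicate 2 the counts were 7 lower and 2 higher, where 20.7% of all genes were lower and 19.2% higher. Without the replicate block they were 7 lower and 3 higher, beside 18.6% and 17.2% of all genes. Of the 14 genes, 8 passed under every alternative run on the counts (Timm10b, Timm13, Timm22, Timm50, Tomm20, Tomm22, Tomm34 and Tomm70a). With the study's further threshold of an absolute log2 fold change above 0.5, 1 import gene was called decreased, Timm10b, and 1 was called increased, Tomm6os. The background for these calls was 13.7% of all genes decreased and 11.6% increased. The 25 values had a median of -0.07 on the log2 scale, beside 0.01 over all tested genes, and 17 of the 25 values were negative, where 49.4% of all tested genes had a negative value. The import genes together took 0.218%, 0.213%, 0.220% and 0.216% of the counts of control libraries 1 to 4 and 0.231%, 0.221%, 0.224% and 0.217% of those of 4A1 KO libraries 1 to 4, which was higher in 4A1 KO in all 4 same-numbered pairs. Their summed TPM was 2727, 2813, 2862 and 2797 in control and 2760, 2714, 2765 and 2682 in 4A1 KO, which was lower in 4A1 KO in 3 of the 4 pairs. A sum weighs abundant genes most. Tomm70a alone held 9355, 10862, 11037 and 12258 of the 86810, 86111, 91817 and 93278 import gene counts in control libraries 1 to 4. In 4A1 KO libraries 1 to 4 it held 11544, 14416, 16206 and 16088 of 73407, 85047, 91668 and 92849. The sums without Tomm70a were not tested.

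**Figure D1:**
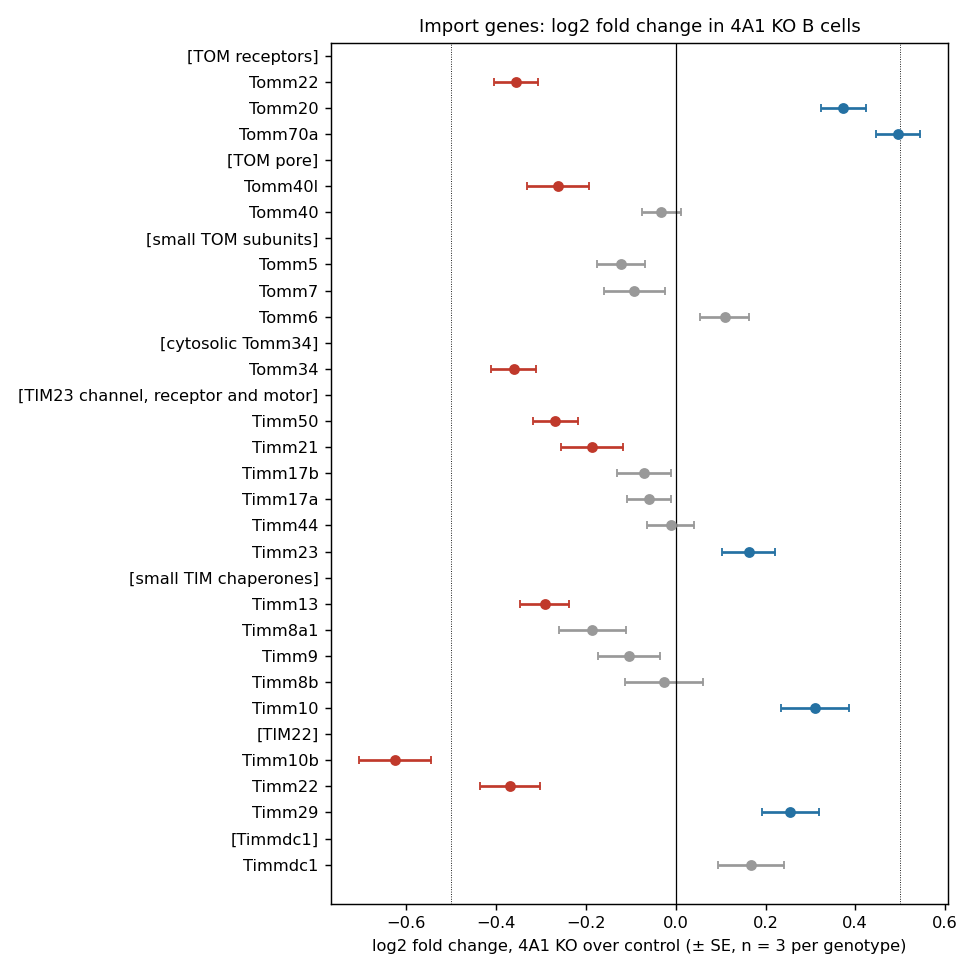
Log2 fold change of CPM in 4A1 KO over control for 24 tested import genes grouped by role, with the SE as bars (n = 3 per genotype). Red marks an adjusted p under 0.05 with a lower level, blue the same with a higher level, and grey an adjusted p above it. Dotted lines stand at an absolute log2 fold change of 0.5, which only Timm10b passed among the genes drawn, and Tomm6os at 1.72 is not drawn.

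The receptors of the TOM complex split between directions. The 250 bases before the annotated start of Tomm70a, Tomm20 and Tomm22 are shown because these 3 receptors of one complex were among the strongest changes in opposite directions, and those of Timm10 because it rose while its relatives did not. They are RefSeq sequences of build GRCm38.p6, 5′ to 3′ on the strand of the gene, at chr16:57121464-57121713 for Tomm70a on the plus strand, chr8:126945922-126946171 for Tomm20 on the minus strand, chr15:79670618-79670867 for Tomm22 on the plus strand and chr2:84826771-84827020 for Timm10 on the plus strand. Capitals mark the ETS core CCGGAAG or its complement CTTCCGG, and in Tomm20 the E-box CACGTG.
Tomm70a: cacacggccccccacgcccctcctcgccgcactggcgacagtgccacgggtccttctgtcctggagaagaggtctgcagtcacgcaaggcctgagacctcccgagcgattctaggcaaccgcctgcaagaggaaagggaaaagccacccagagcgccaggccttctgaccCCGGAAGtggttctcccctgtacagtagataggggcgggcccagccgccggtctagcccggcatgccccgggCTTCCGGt
Tomm20: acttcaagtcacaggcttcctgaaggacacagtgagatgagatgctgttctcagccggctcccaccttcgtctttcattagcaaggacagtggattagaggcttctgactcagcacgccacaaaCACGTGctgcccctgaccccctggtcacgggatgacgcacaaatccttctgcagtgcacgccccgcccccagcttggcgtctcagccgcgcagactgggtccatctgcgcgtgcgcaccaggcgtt
Tomm22: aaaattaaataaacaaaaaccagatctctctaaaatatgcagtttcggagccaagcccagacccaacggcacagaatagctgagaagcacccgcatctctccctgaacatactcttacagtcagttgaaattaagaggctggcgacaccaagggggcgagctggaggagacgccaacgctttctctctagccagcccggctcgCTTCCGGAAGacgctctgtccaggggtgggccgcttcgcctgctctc
Timm10: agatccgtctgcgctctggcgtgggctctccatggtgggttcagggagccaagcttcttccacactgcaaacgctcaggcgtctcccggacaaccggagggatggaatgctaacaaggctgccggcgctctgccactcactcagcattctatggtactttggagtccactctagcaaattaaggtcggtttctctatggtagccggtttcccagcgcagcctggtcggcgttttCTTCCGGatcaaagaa

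Exact matches on either strand were counted in windows from 250 bases before to 50 bases after the start, for the 24 import genes with a RefSeq window, of which 22 were tested for expression and Tomm20l and Timm8a2 were not. The ETS core was present in 10 of 24 (41.7%), beside 9.93% of the windows of 27025 genes, and in 9 of the 22 tested (40.9%), beside 21.5% of those of 9463 tested genes. It stood in 3 of 6 genes that were lower, in 4 of 6 that were higher and in 2 of 10 that did not pass, so that both directions included it. In Timm10b, among the lower genes, the only match began 36 bases after the start. That RefSeq start was not found near the 5′ end of a GENCODE transcript of Timm10b. In Tomm22, a gene that fell, matches on both strands overlapped at positions -47 and -44 from the start, and in Tomm70a, a gene that rose, matches began at positions -80 and -8. The E-box was present in 6 of 24 (25.0%), beside 8.09% of all genes, and in 5 of the 22 tested (22.7%), beside 12.2% of tested genes. Among genes that were higher it stood in Timm10, Tomm20 and Tomm6os (3 of 6), it was in 0 of 6 that were lower, and among those that did not pass it stood in Timm9 and Timm8a1 (2 of 10). In TPM both Timm9 and Timm8a1 passed the test as lower (limma). Neither passed in TPM without the replicate block (adjusted p = 0.261 and 0.103, limma) or with any 1 of replicates 2 to 4 left out. E-box matches thus also stood in genes that were not higher, while no gene lower in counts had one. In Tomm20 it began at position -126, and in Timm10 at position 28 after the start, outside the stretch shown. GCATGCGC, a stretch of the NRF1 motif, was in 1 of 24 (4.17%), Timm13, beside 3.05% of all genes, and so in 1 of the 22 tested (4.55%), beside 6.34% of tested genes. These are matches of letters, and no binding was measured.

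Tomm70a, the receptor for carriers and other proteins with internal signals and a docking site for cytosolic chaperones, had the smallest adjusted p of all import genes. It measured 234, 269, 266 and 281 CPM in control libraries 1 to 4 and 365, 374, 399.5 and 376 CPM in 4A1 KO libraries 1 to 4. Every 4A1 KO library exceeded every control library. The mean rose by 40.9% over replicates 2 to 4, a log2 fold change of 0.49 (SE 0.05, adjusted p = 6.18e-05), just under the fold threshold. It was past that threshold with upper quartile normalization (0.52), with all 8 libraries (0.53), without replicate 2 (0.502) and without replicate 4 (0.53). Tomm20, the receptor for presequences, stood at 150.0, 137, 143 and 141 CPM in control and at 203, 184, 189.9 and 171 CPM in 4A1 KO. The groups did not overlap here either, and the log2 fold change was 0.37 (SE 0.05, adjusted p = 0.000315).

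Tomm20 has 8 pseudogenes that match a transcript over at least 200 bases at 95% identity or more, and these together held 9.08% as many counts as Tomm20. Nearly all of those counts were on Gm14494, at 571 to 591 in control and 500 to 647 in 4A1 KO libraries, with a log2 fold change of 0.19 (adjusted p = 0.0811), so reads could be divided between the copies. Tomm22, the central receptor that also organises the complex, moved the other way. It lay between 112 and 119 CPM in control and between 91.0 and 94.0 CPM in 4A1 KO, with no overlap and a log2 fold change of -0.36 (SE 0.05, adjusted p = 0.000378). Tomm20l, a paralog of Tomm20, was at 0 counts in all 8 libraries.

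**Figure D2:**
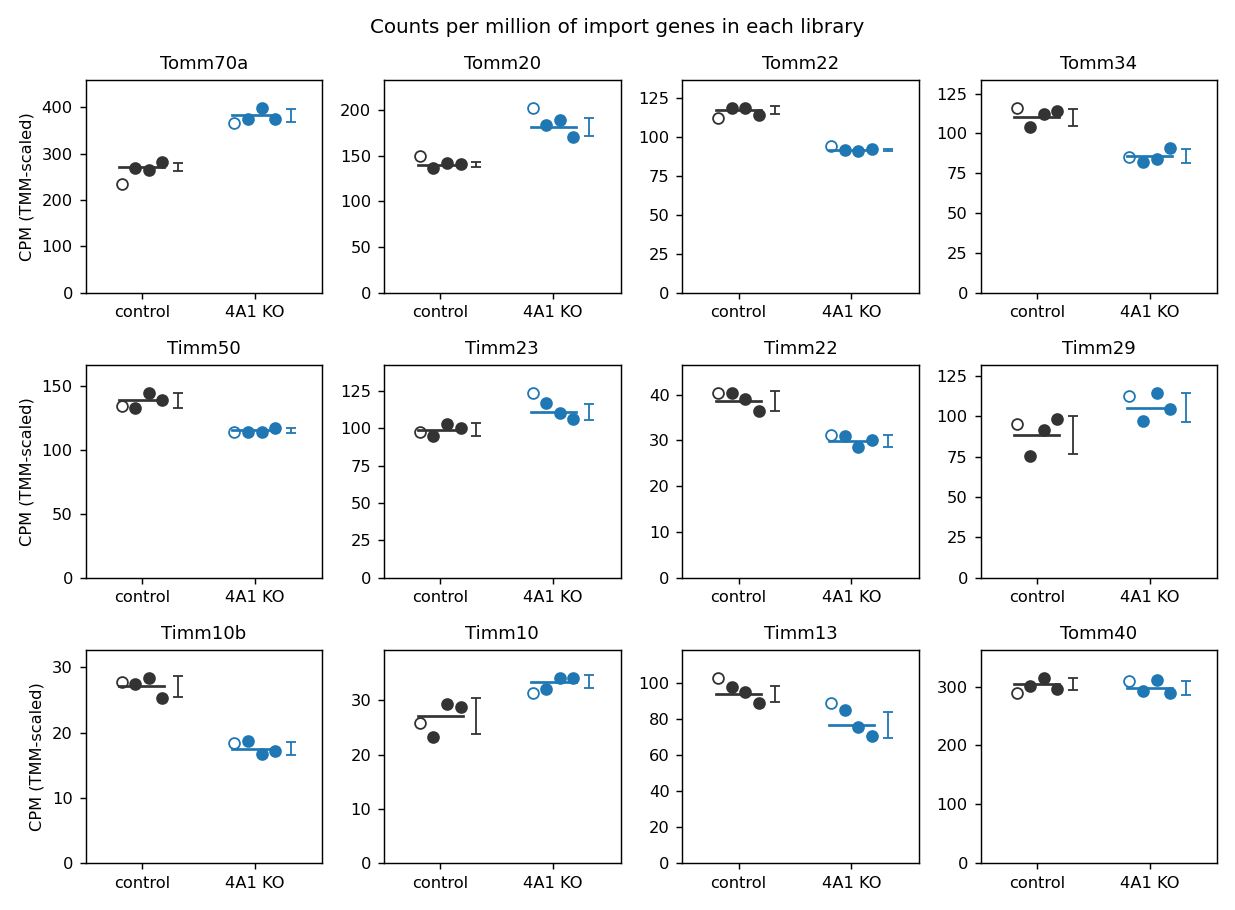
CPM of 12 import genes in each library, with open points for replicate 1 and filled points for replicates 2 to 4. Horizontal lines are means of replicates 2 to 4 and bars their SD (n = 3), and each vertical axis starts at 0. Tomm70a and Tomm20 lie higher and Tomm22, Tomm34, Timm50, Timm22 and Timm10b lower in all 4 4A1 KO libraries, while Tomm40 overlaps.

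Of the 2 pore genes, Tomm40l passed the test and Tomm40 did not. Tomm40, the channel of the TOM complex, stood at 289.6, 301, 315 and 297 CPM in control and at 309, 292, 311 and 289.5 CPM in 4A1 KO. The libraries were interleaved, and the log2 fold change was -0.03 (SE 0.04, adjusted p = 0.56). Its paralog Tomm40l was less abundant and fell, from 45.0, 40.5, 42.8 and 37.5 CPM in control to 38.8, 35.0, 32.7 and 32.9 CPM in 4A1 KO, a log2 fold change of -0.26 (SE 0.07, adjusted p = 0.0107). The groups overlapped through 4A1 KO replicate 1, and without replicate 3 the adjusted p was 0.113.

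None of the 3 small TOM subunits, which stabilise the complex, passed the test. Tomm5 measured 96.8, 94.0, 95.5 and 86.3 CPM in control and 84.5, 87.4, 82.9 and 83.0 CPM in 4A1 KO (log2 fold change -0.12, SE 0.05, adjusted p = 0.0849). Tomm6 measured 147, 146, 122 and 109.7 CPM in control and 179.8, 146, 139.6 and 120.5 CPM in 4A1 KO (0.11, SE 0.05, adjusted p = 0.122). Both passed when all 8 libraries were fitted, with adjusted p of 0.0247 and 0.0251. Tomm7 lay between 34.8 and 44.0 CPM in control and between 35.3 and 40.3 CPM in 4A1 KO (adjusted p = 0.284).

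The reads of Tomm6 may be counted on Gm21981 too, a gene model on the same strand with 859 common exon bases, which held 4772 to 5890 counts in control where Tomm6 held 4778 to 5911. Tomm6os was the gene called increased, at 24, 9, 6 and 15 counts in control and 20, 47, 28 and 23 counts in 4A1 KO libraries 1 to 4. The log2 fold change over replicates 2 to 4 was 1.72 (SE 0.40, adjusted p = 0.00638), but replicate 1 gave 20 counts in 4A1 KO beside 24 in control, and without replicate 2 the adjusted p was 0.0689. The size of the Tomm6os value was 1.32 without replicate 2, 2.35 without replicate 4, 1.24 with all 8 libraries and 0.55 with DESeq2's normal shrinkage. Tomm6os has 577 exon bases in common with Frs3 on the same strand, and Frs3 rose as well, from 19 to 27 counts in control to 36 to 44 in 4A1 KO (log2 fold change 0.90, SE 0.25, adjusted p = 0.0155). For Frs3 the adjusted p was 0.176 with DESeq2, 0.0586 without replicate 3 and 0.0562 without replicate 4. On the opposite strand Tomm6os has 278 exon bases in common with Tomm6 and 958 with Gm21981, whose counts were far higher. The part of reads assigned to the wrong strand in the Tomm6os counts was not tested.

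Tomm34, a cytosolic protein that bridges the chaperones Hsp70 and Hsp90 during delivery, fell. It stood at 116, 104, 112 and 114 CPM in control and at 85.2, 82.3, 84.0 and 90.9 CPM in 4A1 KO. The groups did not overlap, and the log2 fold change was -0.36 (SE 0.05, adjusted p = 0.000403).

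In the TIM23 translocase the receptor Timm50 fell, and the values of Timm21 and Timm23 passed the test narrowly. Timm50, which receives presequences in the intermembrane space, stood at 134, 133, 145 and 139 CPM in control and at 114, 114, 114 and 117 CPM in 4A1 KO (log2 fold change -0.27, SE 0.05, adjusted p = 0.00196), without overlap. Timm21, which links the translocase to the TOM complex and the respiratory chain, was at 27.2, 26.9, 28.5 and 27.9 CPM in control and at 22.8, 23.5, 24.8 and 24.9 CPM in 4A1 KO. These groups did not overlap, yet its log2 fold change of -0.19 (SE 0.07) passed only narrowly at an adjusted p of 0.0478, and leaving out any 1 of replicates 2, 3 and 4 raised this to 0.133, 0.199 and 0.0807. With DESeq2 the adjusted p of Timm21 was 0.138 and without the replicate block 0.105. Timm23, the central channel protein, lay between 94.6 and 102.7 CPM in control and between 106 and 124 CPM in 4A1 KO. The log2 fold change of 0.16 (SE 0.06) had an adjusted p of 0.0426. It was 0.09 without replicate 2 (adjusted p = 0.279), and the adjusted p was 0.0601 without replicate 3, 0.0768 with DESeq2, 0.0921 without the replicate block, 0.0538 with no filter on low counts and 0.126 in TPM (limma). The log2 differences of the same-numbered pairs were 0.35 and 0.30 in batch A and 0.10 and 0.08 in batch B. Timm44, which tethers the import motor, overlapped at 128 to 142 and 128 to 145 CPM (adjusted p = 0.87).

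Timm17a and Timm17b are paralogs that take the same place in the channel. Timm17a measured 91.0, 85.7, 100.5 and 99.0 CPM in control and 84.4, 82.2, 94.3 and 97.2 CPM in 4A1 KO, and Timm17b measured 58.1, 54.2, 51.0 and 45.0 CPM in control and 52.3, 51.8, 45.7 and 45.4 CPM in 4A1 KO. Neither passed the test between genotypes (adjusted p = 0.346 and 0.359). In TPM, the deposited unit that is scaled by transcript length, the order was reversed, and the ratio of Timm17a to Timm17b was 0.542, 0.525, 0.693 and 0.776 in control libraries 1 to 4 and 0.597, 0.571, 0.723 and 0.775 in 4A1 KO libraries 1 to 4. The ratio was lower in batch A than in batch B in both genotypes. The mean log2 ratio was 0.08 higher in 4A1 KO (p = 0.60, exact permutation test over 8 libraries without regard to batch, two-sided, smallest p 0.0286). Within replicate numbers 1 to 4 the log2 difference was 0.14, 0.12, 0.06 and -0.001, and the exact sign-flip p of 0.25 comes from a test that with 4 pairs cannot go below 0.13.

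**Figure D3:**
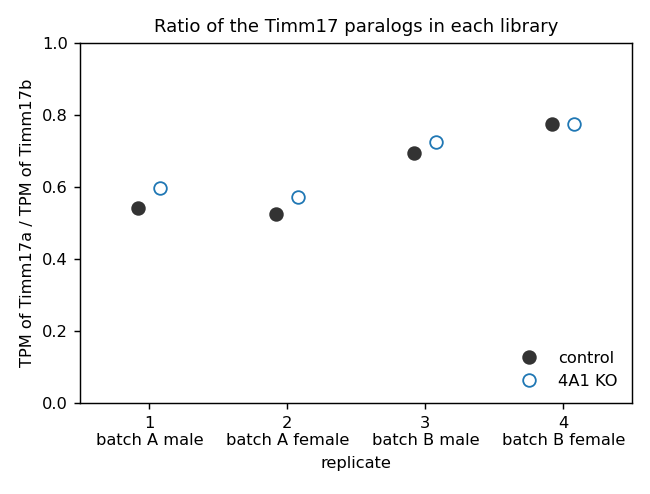
Ratio of Timm17a to Timm17b TPM in each library by replicate number, with filled points for control and open points for 4A1 KO, on an axis from 0 to 1. Batch A libraries lie between 0.525 and 0.597 and batch B libraries between 0.693 and 0.776, and within each replicate number both genotypes lie close together.

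Batch also separated other import genes. Of the 25 tested genes, Timm17a and Timmdc1 were higher in all 4 batch B libraries than in all 4 batch A libraries, and Tomm6 and Timm17b were lower. Over all genes 5.17% were higher and 5.07% lower by this rule. The ratio of batch means, B over A, was 1.14 for Timm17a, 1.18 for Timmdc1, 0.795 for Tomm6 and 0.865 for Timm17b. No import gene had a genotype effect that differed between sexes or batches at an adjusted p under 0.05 (edgeR's quasi-likelihood test of the interaction), and among all genes 0% passed that threshold for sex and 0.00704% for batch. At an unadjusted p under 0.05 there were 0 import genes for sex, beside 2.85% of all genes, and 1 for batch, beside 4.29%. That 1 was Timm23, whose log2 fold change was lower in batch B (B minus A -0.23, unadjusted p = 0.0218, adjusted p = 0.999, edgeR). These fits used all 8 libraries, with the replicate 1 that the study removed, and each cell held 2 libraries.

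The small TIM chaperones work as rings of Timm9 with Timm10 and of Timm8 proteins with Timm13, and of the 5 tested only Timm10 rose. It measured 25.8, 23.2, 29.4 and 28.7 CPM in control and 31.3, 32.2, 34.1 and 34.2 CPM in 4A1 KO, without overlap (log2 fold change 0.31, SE 0.08, adjusted p = 0.00788). Its change was 0.23 without replicate 2, with an adjusted p of 0.0629, and without the replicate block the adjusted p was 0.0564. Timm9, the partner in the same ring, lay between 27.6 and 40.0 CPM in control and between 27.9 and 35.8 CPM in 4A1 KO (-0.10, adjusted p = 0.24). The difference between these 2 fold changes was not tested.

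Timm13 fell, from 102.8, 97.6, 95.2 and 88.9 CPM in control to 89.1, 84.7, 75.3 and 70.5 CPM in 4A1 KO (log2 fold change -0.29, SE 0.05, adjusted p = 0.0018). The groups met at 4A1 KO replicate 1 and control replicate 4. Timm8a1 was at 20.1, 21.9, 23.6 and 23.5 CPM in control and at 19.3, 19.5, 21.4 and 19.7 CPM in 4A1 KO (-0.19, SE 0.08, adjusted p = 0.0649). Its paralog Timm8a2 was close to the limit of detection, at 9, 9, 5 and 9 counts in control and 10, 2, 2 and 4 in 4A1 KO. Timm8b overlapped, at 19.2 to 22.4 and 19.1 to 23.5 CPM (adjusted p = 0.825).

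The TIM22 translocase held the largest decrease. Timm10b, a small TIM bound to this complex, stood at 27.8, 27.5, 28.4 and 25.3 CPM in control and at 18.4, 18.7, 16.7 and 17.2 CPM in 4A1 KO. The mean fell by 35.2% over replicates 2 to 4 with no overlap among 8 libraries, a log2 fold change of -0.63 (SE 0.08, adjusted p = 0.000242), and it was called decreased with any 1 of replicates 2 to 4 left out (-0.66 to -0.55). The gene lies on the plus strand of chromosome 7 (105289263 to 105292847, GRCm39), where Gm45799, a gene model on the same strand, has 376 exon bases in common with it. Gm45799 held 885 to 969 counts in control and 497 to 610 in 4A1 KO, close to the 1104 to 1181 and 581 to 738 of Timm10b, so the 2 counts may hold the same reads. In TPM the fall of Timm10b was larger, at -1.02 (SE 0.12, adjusted p = 0.00472, limma), while Gm45799 was higher by 0.89 (SE 0.14, adjusted p = 0.00895). Replicate 1, outside this fit, went the other way for Gm45799, at 12.1 TPM in control and 8.82 TPM in 4A1 KO. The TPM of both summed to 57.9 to 64.8 in control and to 34.8 to 40.6 in 4A1 KO, so the locus as a whole was lower in all 4 4A1 KO libraries.

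Timm22, the channel-forming carrier translocase, fell as well, from 40.4, 40.4, 39.1 and 36.3 CPM in control to 31.3, 31.0, 28.6 and 30.0 CPM in 4A1 KO (log2 fold change -0.37, SE 0.07, adjusted p = 0.00173). The groups did not overlap. Timm22 is on chromosome 11 (76297778 to 76309269, GRCm39, plus strand), 6.73 Mb from Eif4a1, whose floxed allele was made in ES cells and backcrossed to C57BL/6, and the part of linked sequence in this value was not tested. Timm29, another subunit of the same complex, was higher, at 75.5 to 98.6 CPM in control and 96.9 to 115 CPM in 4A1 KO (0.25, SE 0.06, adjusted p = 0.00866). These groups overlapped, and the adjusted p was 0.0841 without replicate 2 and 0.109 without the replicate block. Timmdc1, a relative of the channel proteins that assembles respiratory complex I, measured 18.7, 19.3, 22.6 and 23.6 CPM in control and 22.4, 22.3, 25.6 and 25.4 CPM in 4A1 KO (0.17, SE 0.07, adjusted p = 0.0835).

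Within each replicate number, 18 of the 25 genes had the same sign in all 4 pairs, where 67.1% of all tested genes did. Over the 8 libraries, 6 import genes had every 4A1 KO library below every control library (Timm22, Tomm22, Timm21, Tomm34, Timm50 and Timm10b), where 19.6% of all genes did. Another 4 had every 4A1 KO library above (Timm23, Tomm70a, Timm10 and Tomm20), where 17.3% of all genes did, and 15 overlapped.

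Levels between genes were compared per length, in TPM. Tomm6 had the highest mean in control, with 326 to 437 TPM over 4 libraries, and its range overlapped that of Tomm40, the second, at 324 to 364 TPM. The range of Tomm5, the third, was 276 to 323 TPM and ended just below that of Tomm40. Then came Timm13 at 231 to 251, Timm23 at 192 to 212, Timm50 at 164 to 183 and Tomm22 at 135 to 148 TPM, each above the range of the next, and Timm44 at 124 to 135, which met the range of Tomm22. The lowest of the 24 genes above 1 TPM were Timm22, Tomm40l, Timm17a, Timmdc1 and Timm21, which lay between 21.3 and 29.4 TPM and each overlapped its neighbour in this order. The other 11 lay between 37.4 and 100.0 TPM.

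**Figure D4:**
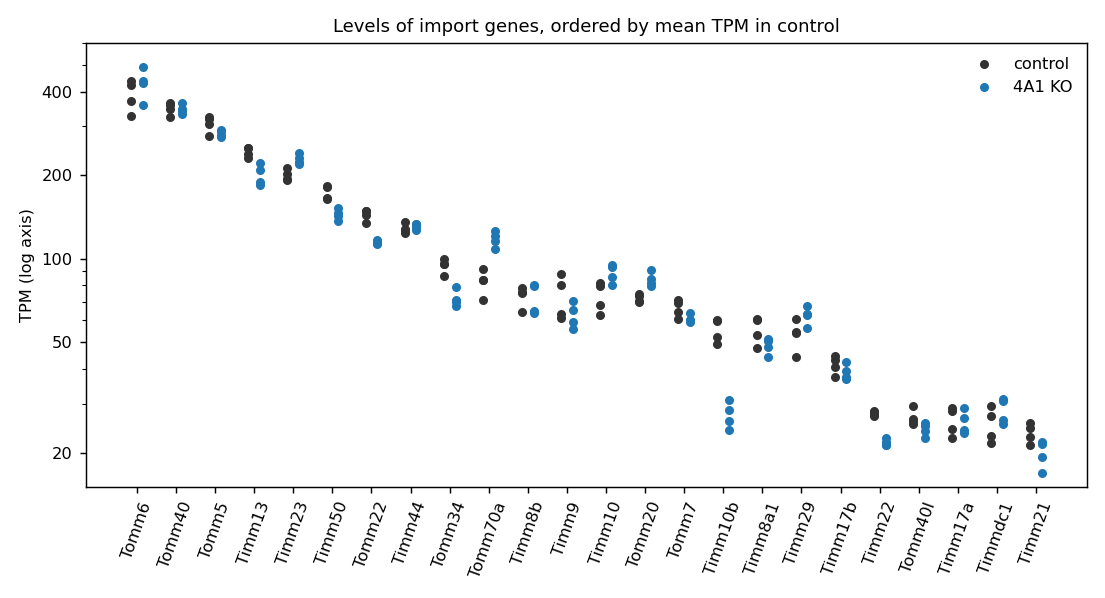
TPM of 24 import genes in each of the 8 libraries, on a log axis and ordered by the mean in control, with dark points for control and blue points for 4A1 KO. The order is led by Tomm6, Tomm40 and Tomm5, and Timm10b shows the widest gap between genotypes.

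In the TPM, 9 of 24 import genes were lower and 3 higher at an adjusted p under 0.05 (limma on log2(TPM + 1)), beside 24.9% and 22.3% of 12976 genes. The sign was the same as in the counts for 22 of 24, and 10 passed in both units. Tomm70a (0.48), Timm10 (0.30) and Tomm20 (0.24) were the genes higher in both. Timm9 and Timm8a1 passed only in TPM, at -0.25 and -0.21, and Timm23, Timm29 and Tomm40l passed only in counts. With 1 of replicates 2 to 4 left out 2 to 6 of the 24 passed in TPM, where 25.2% to 36.6% of all genes passed, and without the replicate block 7 passed, beside 32.5% of all genes.

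Other genes of the pathway run from delivery in the cytosol to folding in the matrix. Of 31 such genes 13 were lower, 4 were higher and 14 did not pass, where 26.7% and 26.3% of all tested genes were lower and higher, and their median log2 fold change was -0.08. Past both thresholds 3 (Hspa8, Mtch1 and Stip1) were called decreased and 0 increased, beside 13.7% and 11.6% of all tested genes. Of these calls, that of Mtch1 ended without replicate 2 and that of Stip1 without replicate 3, both at a log2 fold change of -0.49. The list was written with earlier results of these data known. The largest decrease was in Hspa8, the constitutive cytosolic Hsp70 that brings precursors to Tomm70a. It stood at 2598, 2339, 2853 and 2765 CPM in control and at 1103, 1088, 1311 and 1540.2 CPM in 4A1 KO, a log2 fold change of -1.02 (SE 0.06, adjusted p = 1.03e-05). The highest 4A1 KO library lay below the lowest control library. Stip1, the cochaperone that joins Hsp70 to Hsp90, fell from 576, 575, 683 and 640.0 CPM to 404, 390.0, 447 and 473 CPM (-0.53, SE 0.05, adjusted p = 4.23e-05). Hspd1, the matrix chaperonin, fell from 960.2, 1060.4, 1194 and 1245 CPM to 751, 754, 869 and 906 CPM (-0.47, SE 0.04, adjusted p = 3.78e-05). Mtch1, an outer membrane insertase, fell from 67.4, 73.3, 53.3 and 56.3 CPM to 44.3, 42.4, 36.3 and 41.8 CPM (-0.59, SE 0.08, adjusted p = 0.000234). The groups did not overlap for any of these 3 genes.

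The 4 that rose were Hspa9, Chchd4, Mtx3 and Trap1. Hspa9, the matrix Hsp70 that drives the import motor, rose from 1103, 1151, 1159.8 and 1170.5 CPM in control to 1351, 1339.6, 1476 and 1379.6 CPM in 4A1 KO (0.27, SE 0.05, adjusted p = 0.00108). Chchd4, the oxidoreductase that traps small TIM proteins by disulfides, rose from 48.8, 53.6, 69.1 and 71.1 CPM to 70.7, 70.1, 79.9 and 84.0 CPM (0.28, SE 0.06, adjusted p = 0.00346). Hspa9 did not overlap between genotypes, while Chchd4 did, through control replicate 4. Mtx3 of the sorting and assembly machinery rose from 17.7, 13.4, 17.5 and 17.1 CPM to 20.7, 19.0, 24.3 and 20.01 CPM (0.40, SE 0.09, adjusted p = 0.00458). Trap1, a matrix Hsp90, stood at 214, 218, 222 and 207 CPM in control and at 238, 238, 240.5 and 234 CPM in 4A1 KO (0.14, SE 0.04, adjusted p = 0.0248). Neither of these overlapped. Without the replicate block the adjusted p was 0.113 for Chchd4, 0.0623 for Mtx3 and 0.0902 for Trap1, and Trap1 also did not pass with any 1 of replicates 2, 3 and 4 left out (adjusted p = 0.0813, 0.0577 and 0.085). Matrix chaperones thus went both ways, as the receptors did. Among the cofactors of Hspa9, Grpel1 changed by -0.23 (SE 0.05, adjusted p = 0.0037) and Dnajc15 by -0.40 (SE 0.08, adjusted p = 0.00307), while the TPM of Dnajc15 gave 0.87 (SE 0.12, adjusted p = 0.00741, limma), so no direction is given for it.

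**Figure D5:**
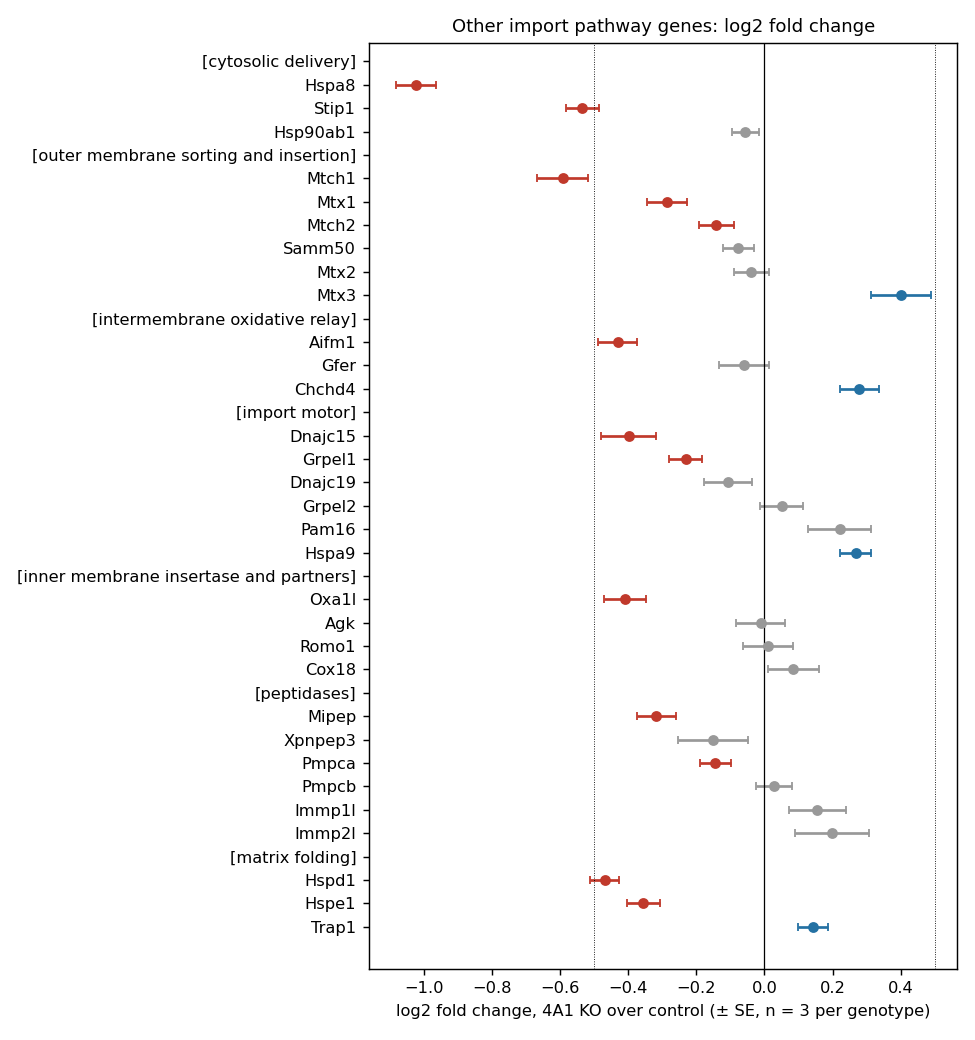
Log2 fold change of CPM in 4A1 KO over control for the 31 other genes of the import pathway, grouped by step, with the SE as bars (n = 3 per genotype). Red, blue and grey mark lower, higher and not passing at an adjusted p of 0.05, dotted lines stand at an absolute value of 0.5, and Hspa8 at -1.02 is the farthest from 0.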

How the data were processed

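RNA of 8 B cell cultures, 4 per genotype, was analysed, with genotype, sex, batch and replicate number taken from the labels. The authors trimmed reads with Trim Galore 0.6.6, aligned them to GRCm39 with HISAT2 2.1.0, suppressing soft-clipping, and counted them strand-specifically with Seqmonk on merged isoforms. These counts were deposited without normalization. The authors deposited TPM from StringTie 2.1.1. How reads with several alignments were counted is not given in the sources used here.

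Counts of replicates 2 to 4 were fitted in R 4.3.3 with edgeR 4.0.16 (filterByExpr, TMM, quasi-likelihood test, terms for batch, sex and genotype). In these 6 libraries batch and sex equal the replicate number as a block. Tests were two-sided, p-values were adjusted by Benjamini-Hochberg over all genes tested, and SEs were derived from the fold change and its test statistic. Printed CPM are counts over the TMM-scaled library size of all 8 libraries. For TPM, limma 3.58.1 was fitted to log2(TPM + 1) with the same terms, over genes with a mean of at least 1. The code was tested on simulated data. The labels do not say that each library is a different mouse, so p-values measure the spread between these libraries, which the study's methods describe as 4 mice per genotype. Between 31727557 and 43210858 counts per library were available.

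The numbers pair the libraries because both share a batch and a sex in the labels. After subtraction of genotype means, same-numbered libraries correlated across genes at a mean r of 0.51 and other pairs at -0.25.

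The members and the gene lists were chosen with earlier results of these data known. Values in every library are given for members past both thresholds, for the 2 largest absolute log2 fold changes of each role and for paralog pairs, and for the 4 smallest adjusted p in each direction among the other pathway genes. Further genes were named after their values were seen. Coordinates come from GENCODE M39 (GRCm39), to which all 27 members matched by identifier, and pseudogenes from blastn 2.17.0 at 95% identity over 200 bases. Promoter sequences come from RefSeq (GRCm38.p6) and matched 24 members by symbol. Timm21, Tomm40l and Tomm7 had no entry. Alternatives were DESeq2 1.42.0, other normalizations, filters and pseudocounts, no replicate block, all 8 libraries and leaving out each replicate.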

Additional observations from a re-analysis of the deposited data

Results flagged for a closer look

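Among 50 groups of 4 libraries (25 genes, 2 genotypes), 3 had a library apart from the other 3 by Dixon's test at 95%, where chance gives about 2.5. Timm50 in 4A1 KO had a gap of 0.951 of its range, with replicate 4 at 117 CPM and the others at 114 CPM. Timm8b in control had a gap of 0.869, with replicate 1 at 19.2 CPM and the others at 21.9 CPM or more. Timm8a1 in 4A1 KO had a gap of 0.847, with replicate 3 at 21.4 CPM and the others at 19.7 CPM or less. In all 3 groups the whole range was small beside the level.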

How the results depend on the processing

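The count of import genes called decreased was 1, Timm10b, under every alternative run, and 8 of the 14 genes past the adjusted p kept it under every alternative run on the counts. The exceptions were Timm10, Timm21, Timm23, Timm29, Tomm40l and Tomm6os. The count called increased was 2, with Tomm70a added to Tomm6os, with upper quartile normalization and with all 8 libraries, 0 with a mean of at least 5 CPM, which removes Tomm6os, and 1 to 2 with 1 replicate left out (without replicate 2 the 1 was Tomm70a and not Tomm6os). The number past the adjusted p was 9 to 13 with 1 replicate left out (9 without replicate 2), and the number higher was 2 to 6. Without the replicate block, which rests on shared batch and sex, 10 of 25 passed, of which 3 were higher, and 12 of 31 other pathway genes passed, where 35.8% of all genes passed. With 1 replicate left out 39.9% to 50.7% of all genes passed in counts. In TPM 7 import genes passed without the block, beside 32.5% of all genes, and 2 to 6 with 1 replicate left out, beside 25.2% to 36.6%. The cause of these differences was not tested.

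Between units, Dnajc15 and Gm45799 were lower in counts and higher in TPM with both values past the threshold, and the TPM of Dnajc15 was at 0.26 (adjusted p = 0.623) with all 8 libraries. In replicate 1 both were lower in TPM, Dnajc15 at 35.5 in control and 11.4 in 4A1 KO and Gm45799 at 12.1 and 8.82. Within a unit, the signs that turned belonged to values near 0 that passed no threshold. With upper quartile normalization Timm44 was at 0.0112 and Agk at 0.0113 (log2 fold change), and with all 8 libraries Gfer was at 0.00493, Grpel2 at -0.0360 and the TPM of Timm17a at -0.00918. With 1 of replicates 2 to 4 left out, Timm44 ranged from -0.0640 to 0.0304, Timm8b from -0.0846 to 0.0711, Romo1 from -0.0294 to 0.0760, Agk from -0.0606 to 0.0339, the TPM of Timm17a from -0.0409 to 0.0448 and that of Timm8b from -0.106 to 0.0616. Upper quartile normalization moved the median log2 fold change of all genes to 0.03. Depth limits Tomm6os, Timm8a2, Tomm20l and Frs3, where counts were 47 or fewer. The sign-flip test of the Timm17 ratio, which keeps the replicate block, used the same mean log2 difference of 0.08 (exact p = 0.25) and cannot go below 0.13 with 4 pairs.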
